A study of Caenorhabditis elegans with 2 samples.

Results

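Peaks that lie beside transfer RNA (tRNA) genes are described here, from chromatin immunoprecipitation and sequencing (ChIP-seq) of GFP-tagged LIN-32 in Caenorhabditis elegans embryos. A peak was taken when its summit, the authors' position of highest enrichment, was 500 bp or less from a tRNA gene on 1 of the 6 nuclear chromosomes. These were 425 of the 26004 peaks listed for both replicates together, or 1.63% (95% exact binomial interval 1.48 to 1.80%; the intervals below are of the same kind and cover counting error only). The authors label this pooled list as peaks and background, so an entry in it is not by itself a site of binding. Both samples are biological replicates of 1 group, so no second condition was compared. The strain, OP740, carries the transgene wgIs740, which joins the tags TY1, EGFP and 3xFLAG to lin-32 and brings an unc-119(+) rescue gene, in animals with the allele unc-119 (tm4063). The samples were whole embryos of mixed stage and mixed sex, obtained by egg bleaching, with a labelled age of 3 h. Both replicates carry the tagged protein and were compared with the same control alignment. Precipitation from animals without the tag, or with another tagged protein, was not analysed here, so whether a peak beside a tRNA gene depends on LIN-32 was not tested. Peak lists hold no expression values, so the labelled stage was not checked against marker genes.

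tRNA genes are short genes transcribed by RNA polymerase III. Their promoter lies inside the gene, as an A box near the start and a B box further along, which the factor TFIIIC binds and which lead to the placing of TFIIIB just upstream. Each tRNA carries 1 amino acid, its isotype, and the genome holds many identical copies of the genes. LIN-32 is a proneural basic helix-loop-helix factor of the Atonal family, known for its part in the making of touch receptor and other sensory neurons, and such factors bind short E-box sequences. The annotation (Ensembl release 115, WBcel235) gave 612 nuclear tRNA genes, of which 607 have an isotype in RefSeq and 5 have none. Their lengths ran from 64 to 122 bp, with a median of 72 bp.

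The gene sequences below show what lay under the strongest peaks and what did not. They are read from RefSeq's WBcel235 genome on the gene's own strand, in lower case, and capitals mark the letters that match the A box (the match nearer the start) and the B box (GGTTC, then G or A, then A, any pair of letters and CC, nearer the end). The first 6 genes had a peak in the IDR set, the peaks kept by the authors' irreproducible discovery rate procedure. That procedure judges how well peak ranks match between replicates, and here the set is exactly the 1042 pooled peaks of highest signal. C04A11.t1 (tRNA-Leu, chrX:13665555-13665673, + strand) had the strongest of all 425 peaks. F57F5.t1 (tRNA-Ile, chrV:12002176-12002260, + strand) and R04A9.t1 (tRNA-Gln, chrX:410391-410462, + strand) lack a full match to the B box letters. Each holds a near match that differs at the first and last letters. C06G1.t1 (tRNA-His, chrX:16634830-16634901, - strand) is 1 of 11 identical copies, F46G11.t2 (tRNA-Pro, chrX:5801211-5801282, - strand) is 1 of 24, and F15G9.t1 (tRNA-Ala, chrX:9743589-9743660, + strand) is 1 of 8. K11H12.t1 (chrIV:658181-658266, + strand), the single gene for selenocysteine tRNA, had a peak outside the IDR set. T22C8.t1 (tRNA-Leu, chrII:8631957-8632040, - strand) and F49C5.t1 (tRNA-Trp, chrII:12539597-12539668, + strand) had no summit within 500 bp. The first has the letters of both boxes. F49C5.t1 has a full match to neither, but it holds a near match to the B box that differs at the first and last letters.
C04A11.t1: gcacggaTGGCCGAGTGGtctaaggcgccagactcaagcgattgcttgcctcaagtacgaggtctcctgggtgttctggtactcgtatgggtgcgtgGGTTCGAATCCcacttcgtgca
F57F5.t1: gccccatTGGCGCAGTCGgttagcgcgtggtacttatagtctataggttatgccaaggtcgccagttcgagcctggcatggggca
R04A9.t1: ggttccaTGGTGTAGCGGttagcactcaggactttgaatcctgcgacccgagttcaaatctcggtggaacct
C06G1.t1: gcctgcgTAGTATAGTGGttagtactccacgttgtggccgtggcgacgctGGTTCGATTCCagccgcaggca
F46G11.t2: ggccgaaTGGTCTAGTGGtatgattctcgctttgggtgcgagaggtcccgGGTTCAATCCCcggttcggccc
F15G9.t1: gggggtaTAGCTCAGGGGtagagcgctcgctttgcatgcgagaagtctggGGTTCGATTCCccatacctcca
K11H12.t1: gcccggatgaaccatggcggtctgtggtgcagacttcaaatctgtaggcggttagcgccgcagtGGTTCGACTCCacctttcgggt
T22C8.t1: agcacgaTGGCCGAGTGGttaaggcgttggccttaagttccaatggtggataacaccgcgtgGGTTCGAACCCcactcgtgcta
F49C5.t1: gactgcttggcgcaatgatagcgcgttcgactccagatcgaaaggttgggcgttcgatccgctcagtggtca

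Peaks beside tRNA genes stood high in the list. Of the 425, 176 (41.4%, interval 36.7 to 46.3%) were in the IDR set, against 866 of the 25579 other peaks (3.39%, interval 3.17 to 3.61%) and 4.01% of all nuclear pooled peaks. The IDR set is exactly the pooled peaks ranked 1 to 1042 by the authors' signal, so membership of that set and a rank of 1042 or better are 1 measure here. Their median rank was 1738 (quartiles 507 and 11111), against 13125 for the other peaks. It was 4435 without tRNA genes that have an identical copy, 4084 with windows of 1000 bp and 708 for summits inside the gene. The signal, whose scale is not stated, had a median of 74.1 (quartiles 42.7 and 132, range 30.7 to 532), against 40.3 for the others. The 249 peaks beside tRNA genes outside the IDR set had a median signal of 45.7, against 40.5 over all nuclear pooled peaks. Windows of 500 bp around tRNA genes cover 0.571% of the nuclear genome. Peaks beside tRNA genes were 20% of the 100 strongest peaks and 21.2% of those ranked 101 to 500, against 0.600% of those ranked 20001 to 26004. They did not include the very strongest peaks of the list, since the best rank was 15.

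**Figure D1:**
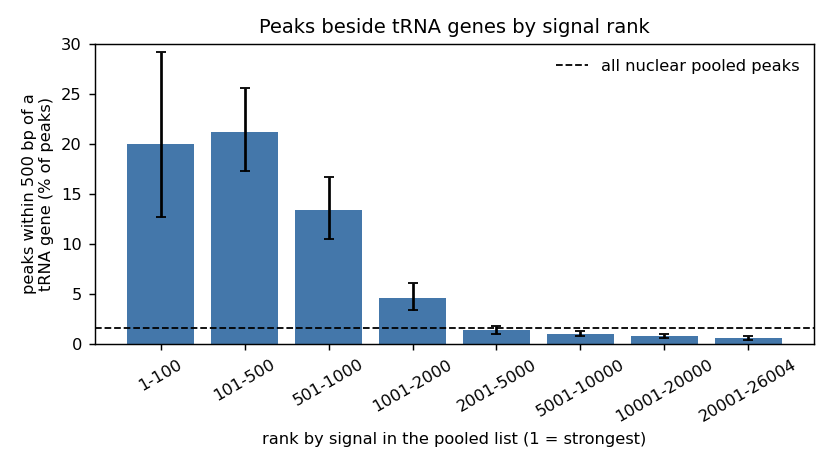
The bars give the share of pooled peaks with a summit 500 bp or less from a tRNA gene (percent of peaks) in 8 bins of signal rank, where 1 is the strongest, and the error bars are 95% exact binomial intervals. The share was 20% among ranks 1 to 100 and 1.37% among ranks 2001 to 5000. The interval of the latter (0.982 to 1.85%) includes the 1.63% over all nuclear pooled peaks (dashed line).

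Of the 612 tRNA genes, 201 (32.8%, interval 29.1 to 36.7%) had an IDR summit within 500 bp and 445 (72.7%, interval 69.0 to 76.2%) had a pooled summit, while 167 (27.3%) had none. A tRNA gene had at most 3 summits, and 60 genes had 2 or more. Because 70 of the 425 peaks lay within 500 bp of 2 or more tRNA genes, and 1 lay near 5, counts of genes and of peaks differ. Each peak is named below for its nearest tRNA gene.

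The strongest peak lay at C04A11.t1, a tRNA-Leu gene of 119 bp outside any coding intron, with its summit on the first base of the gene. Its signal was 314 in replicate 1 (rank 10) and 223 in replicate 2 (rank 24), and 532 in the pooled list (rank 15). It was the strongest peak beside a tRNA gene in every list. W03G11.t1, which encodes a lysine tRNA on the X chromosome (chrX:12106147-12106219), followed at pooled rank 43, with a signal of 157 in replicate 1 (rank 75) and 206 in replicate 2 (rank 28). The tRNA-Trp gene sup-5, known for amber suppressor alleles, was next at pooled rank 52 (chrIII:8678497-8678568), with a signal of 200 in replicate 1 (rank 37) and 149 in replicate 2 (rank 77). It sits in an intron of fli-1, on the same strand. The replicates thus did not put these 3 genes in the same order. C37A2.t1, a tRNA-Cys gene in an intron of the cyclin E gene cye-1 (chrI:6781803-6781874), had signals of 191 and 151 in replicates 1 and 2 (pooled rank 53).

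T14F9.t1, a tRNA-Asp gene at pooled rank 54, lies 1793 bp from the lin-32 gene itself on the X chromosome (chrX:2227191-2227262) and is the only tRNA gene within 20000 bp of it. The transgene carries lin-32 sequence, so native and transgene copies of neighbouring sequence cannot be told apart. Its signal was 190 in replicate 1 (rank 44) and 125 in replicate 2 (rank 130).

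The 20 strongest peaks beside tRNA genes, ranked 15 to 96, were spread over 14 isotypes. Of these, 9 lay on the X chromosome, 12 beside a tRNA gene within a coding intron, and 2 beside a clustered one, and 13 had the summit inside the tRNA gene. Over all 425 peaks these counts were 168, 207, 127 and 169. Every one of the 20 was matched in both replicate lists, with no rank worse than 159 in replicate 1 or 164 in replicate 2. Several sit in introns of genes of known function. F38G1.t2, a tRNA-Asp gene, lies in the fibroblast growth factor gene egl-17 (pooled rank 96), F15G9.t1 in the hemicentin gene him-4 (rank 81), F29C4.t1, a tRNA-Arg gene, in the collagen gene col-99 (rank 88) and F17H10.t1, a tRNA-Gly gene, in the sorting nexin gene snx-17 (rank 80). Among the others, F57F5.t1 was at rank 58, F41D9.t3 (tRNA-Asn, in an intron of sulp-3) at 62, C28G1.t1 (tRNA-Glu) at 72, F33G12.t1 (tRNA-Ile) at 78, ZC455.t1 (tRNA-Ser) at 85, C06G1.t1 at 87, T21B4.t1 (tRNA-Ile) at 91 and C04A2.t1 (tRNA-Leu) at 93. The remaining 3, at Y7A9D.t3, Y7A9D.t1 and F58D5.t1, had summits outside the gene by over 100 bp and are described with the E-box sequences.

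Peaks on either side of the IDR boundary had nearly the same signal. Just inside it, C27A12.t1 (tRNA-Leu) at rank 1029 and Y65A5A.t1 (tRNA-Ala) at rank 1030 both had a signal of 92.9. Just outside, C16H3.t1 (tRNA-Val) at rank 1050 had a signal of 92.2 and Y51H4A.t4 (tRNA-Gly) at rank 1060 had 91.6.

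Peaks beside tRNA genes recurred between replicates. A replicate 1 summit lay within 100 bp of 346 (81.4%), a replicate 2 summit of 337 (79.3%), and both of 275 (64.7%, interval 60 to 69.3%), against 28.2% of the other peaks and 28.8% of all nuclear pooled peaks. Peaks beside tRNA genes also had higher signals than the others (medians 74.1 and 40.3), and the part of this in the shares was not tested. The IDR set is the pooled peaks ranked 1 to 1042, from a list made of both replicates. A match in the replicate lists is therefore not independent of it. Of the 176 in the IDR set, 175 were matched in both lists, against 832 of the 866 other IDR peaks (96.1%). The exception was F41A4.t1, a tRNA-Asp gene at pooled rank 540 and replicate 1 rank 680, whose nearest replicate 2 summit lay 106 bp away. The worst ranks of matched IDR peaks beside tRNA genes were 9678 in replicate 1 and 3275 in replicate 2. Outside the IDR set 100 of 249 (40.2%) were matched in both lists and 17 (6.83%) in neither. Over all other pooled peaks, those in the IDR set included, 28.2% were matched in both and 13.1% in neither.

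Signals of the 275 matched peaks had a Spearman correlation of 0.848, and after a log2 transformation Pearson's r was 0.858. Over 7218 other matched peaks these were 0.441 and 0.716. Such values depend on the spread of signals in a set, and the 275 join peaks inside and outside the IDR set. Within the IDR set the Spearman correlation was 0.719 over 175 peaks beside tRNA genes and 0.637 over 832 other peaks, while Pearson's r on the log2 values was 0.737 and 0.776, so the measures order these sets differently. Outside the IDR set the Spearman correlation was 0.399 over 100 peaks beside tRNA genes, whose pooled signals span a narrower range (30.7 to 92.2) because the set is cut by signal. These correlations run across sites of the same 2 libraries, and the sites share those libraries, the control and the depth. Of the 176, 131 (74.4%) were among the 1042 strongest peaks of both replicates, against 64.7% of the other IDR peaks. The 1042 strongest peaks of each replicate list alone held 164 (15.7%, replicate 1) and 168 (16.1%, replicate 2) peaks beside tRNA genes. Over the whole nuclear lists the shares beside tRNA genes were 1.45% and 1.81%. A summit among the 1042 strongest in both lists lay by 152 tRNA genes (24.8%).

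**Figure D2:**
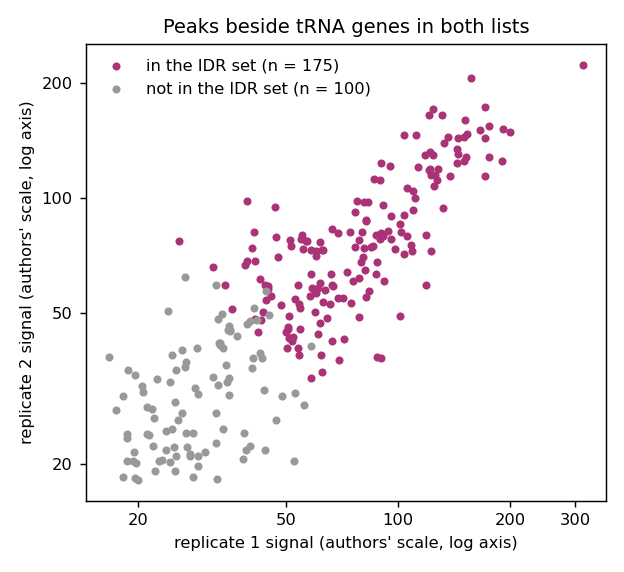
Each point is a pooled peak beside a tRNA gene with a summit within 100 bp in both replicate lists. The axes give the authors' signal in replicate 1 and in replicate 2 on log scales, and colours separate the 175 peaks in the IDR set from the 100 outside it. Over all 275 points the Spearman correlation was 0.848, and the colours lie apart because the IDR set is cut by pooled signal.

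Summits gathered at the start of the gene. Counting along the gene's strand from 1 at its first base, the median position was 22 for all 425 peaks (quartiles -14 and 81), 12 for those in the IDR set (quartiles -6 and 46) and 41 for those outside it (quartiles -19 and 153). The summit lay inside the gene for 97 of 176 IDR peaks (55.1%) and for 72 of 249 others (28.9%). It lay downstream of the gene for 10.2% of the IDR peaks and 36.5% of the others, whereas the shares upstream were 34.7% and 34.5%. Peaks within 50 bp of the gene had higher median ranks than those further away. Of peaks with a summit inside the gene 57.4% were in the IDR set (median rank 708), of those 1 to 50 bp away 48.9% (median rank 1118), of those 51 to 100 bp away 14.8% (4 of 27) and of those 101 to 200 bp away 9.09% (4 of 44). Beyond that there was no steady order, with 6.25% (1 of 16) at 201 to 300 bp, 20% (2 of 10) at 301 to 400 bp and 4.55% (1 of 22) at 401 to 500 bp, and median ranks of 17679, 14084 and 12145. Over all distances beyond 100 bp the share was 8.70% (8 of 92), against 50.5% (168 of 333) within 100 bp.

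**Figure D3:**
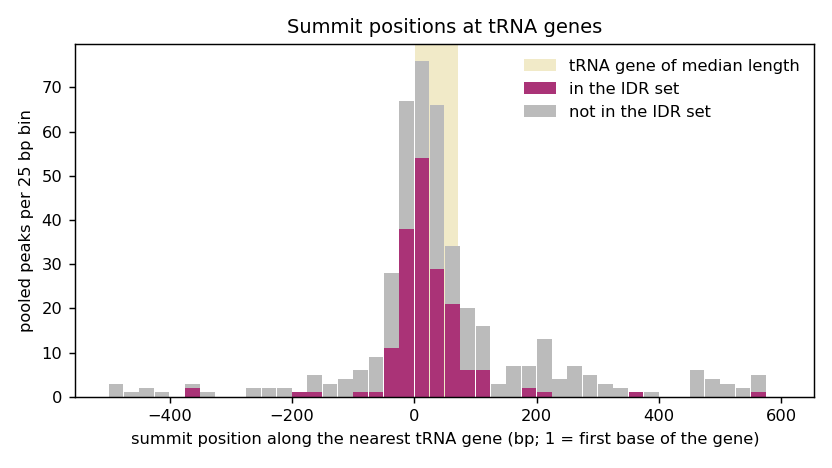
The bars count pooled peaks in bins of 25 bp by summit position along the nearest tRNA gene, where 1 is the first base and negative values are upstream, and the shaded band spans a gene of the median length, 72 bp. Peaks in the IDR set (coloured) fall mostly within the gene or just upstream, with a median at 12, and peaks outside it (grey) reach further downstream, with a median at 41.

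No isotype was without a strong peak among the 20 with 10 or more genes. Each had at least 4 tRNA genes with an IDR summit. The share ran between 21.1% (4 of 19) for tyrosine and 53.8% (7 of 13) for cysteine. Aspartate had 40.7% (11 of 27), glutamate 39.0% (16 of 41) and arginine 38.6% (17 of 44) at the upper end, and threonine 26.5% (9 of 34), asparagine 25% (5 of 20) and histidine 25% (5 of 20) at the lower end. The interval of every one of the 20 isotypes includes the 32.8% of all tRNA genes, so the intervals of neighbours in this order overlap and the order is within counting error. The top of the order also moved between replicates. Cysteine tRNA genes with a summit among the 1042 strongest peaks were 53.8% in replicate 1 and 30.8% in replicate 2, below glycine (34.5%) and proline (38.1%) there.

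The glycine genes were the most numerous, with 55, and 17 (30.9%) had an IDR summit, and lysine followed with 14 of 46 (30.4%). By median rank of its peaks, phenylalanine stood highest (604 over 8 peaks) and arginine lowest (6568 over 34 peaks) among these 20 isotypes, although arginine had one of the larger shares of genes in the IDR set. Beside the genes named above, the strongest peak was at F46G11.t2 for proline (rank 136), C02B4.t2 for tyrosine (146, in an intron of the nuclear receptor gene nhr-17), R04A9.t1 for glutamine (158), R01H5.t1 for threonine (161), T28B4.t1 for phenylalanine (207) and T15B12.t1 for methionine (241). For valine and histidine it was at Y7A9D.t3 and Y7A9D.t1. The selenocysteine gene K11H12.t1 had a signal of 41.0 in replicate 1 (rank 1817) and 51.5 in replicate 2 (rank 920), and a pooled signal of 88.4 (rank 1118), just short of the IDR set. Of the 5 genes with no isotype, K02D3.t1 alone had a pooled summit (rank 5999), 132 bp from the gene.

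**Figure D4:**
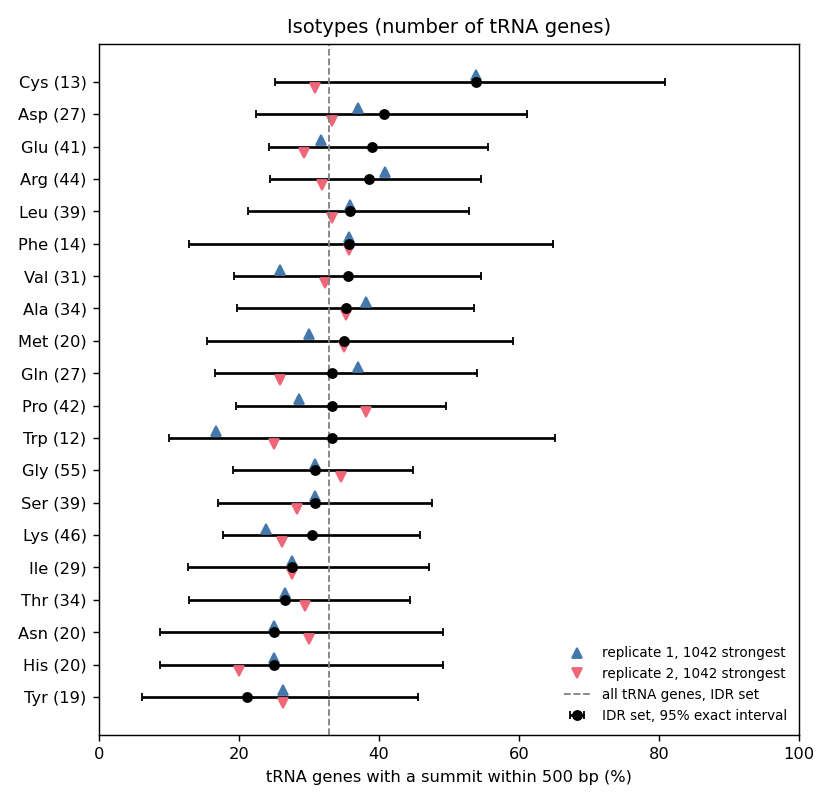
Each row is an isotype with its number of tRNA genes, ordered by the share of genes (percent) with an IDR summit within 500 bp (black points, with 95% exact intervals). Triangles give the share with a summit among the 1042 strongest peaks of each replicate, and every interval includes the 32.8% of all tRNA genes (dashed line).

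Identical genes did not have identical peaks. The 612 genes hold 200 distinct sequences, of which 57 occur in 2 or more copies. Genes with an identical copy elsewhere had an IDR summit in 36.0% of cases (169 of 469, interval 31.7 to 40.6%), and genes of unique sequence in 22.4% (32 of 143, interval 15.8 to 30.1%). The shares were 33.9% and 21.7% in replicate 1 and 34.1% and 19.6% in replicate 2. When copies were judged without the 3 bases at each annotated end, a setting chosen after the data were seen, they were 36.1% and 20.8%. How reads that fit several copies were placed is not given in the sources used here. For copies with the same letters the value of one may therefore hold reads of another, and the part of this in the values was not tested. Peaks in unique sequence, such as those at C04A11.t1 and F57F5.t1, do not share the whole gene with another copy.

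The 20 sequences with 10 or more copies comprise 317 genes. Between 20% (tRNA-Thr, 15 copies) and 58.3% (tRNA-Cys, 12 copies) of their copies had an IDR summit, and 19 of the 20 held both a copy with an IDR summit and a copy with no pooled summit at all. In the largest, a tRNA-Gly sequence of 29 copies, 11 had an IDR summit and 25 a pooled one, with the best at F56C3.t1 (rank 121). A tRNA-Lys sequence of 25 copies had 9 in the IDR set, with ranks spread between 43 at W03G11.t1 and 20887 at F39B1.t2. The 24 copies of the tRNA-Pro sequence had 7 in the IDR set, and the 21 of tRNA-Asp had 8.

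The tRNA-His sequence printed above shows the spread in 1 family. Of its 11 copies, C06G1.t1 (rank 87), W09G10.t1 (rank 292) and Y7A9D.t1 (rank 839) had an IDR summit inside the gene, and Y65A5A.t4 had a weaker one 54 bp away (rank 3237). Y7A9D.t1 had a second and stronger summit, at rank 77, which lay 196 bp outside the gene. The copies F28H6.t2 and F28H6.t7 shared a weak summit (rank 23160), and the other 5 copies had none. Of those 5, 4 lie in the same group of tRNA genes as F28H6.t2 and 1, C49F5.t1, lies elsewhere on the X chromosome.

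By chromosome, V had the lowest share, with an interval that overlaps those of chromosomes I to IV (lower ends 19.9% to 25.5%) and not that of X. On chromosome V 14 of 78 tRNA genes (17.9%, interval 10.2 to 28.3%) had an IDR summit, against 31.6% to 36.6% on the other 5 chromosomes, and the share was 16.7% in replicate 1 and 17.9% in replicate 2. The median rank of its 57 peaks was 5948, against 1018 to 2258 on the other chromosomes. Chromosome V also has the largest share of tRNA genes of unique sequence, 34.6%, and the lowest IDR share among its other pooled peaks (2.24%, against 3.03% to 4.10%). The part of these in the lower share was not tested. The X chromosome holds 276 of the 612 tRNA genes (45.1%), and 96 of them (34.8%, interval 29.2 to 40.7%) had an IDR summit, against 105 of 336 (31.2%, interval 26.3 to 36.5%) on the autosomes. Those intervals overlap.

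Clustered tRNA genes, with another tRNA gene within 1000 bp, had an IDR summit in 66 of 236 cases (28.0%, interval 22.3 to 34.2%) and isolated ones in 135 of 376 (35.9%, interval 31.1 to 41.0%), and these intervals overlap. Peaks nearest to clustered genes had a median rank of 4498 (30.7% of 127 in the IDR set), against 1332 for isolated genes (46.0% of 298). The order depends on what is called a cluster, since with a distance of 500 bp the shares of genes were 32.9% and 32.8%. The genes fall into 100 clusters of at most 6 genes, of which 86 had a pooled summit and 37 an IDR summit. The strongest peak nearest to a clustered gene was that 196 bp from Y7A9D.t1.

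Genes inside an intron of a protein-coding gene had an IDR summit in 31.1% of cases (89 of 286) and genes outside in 34.4% (112 of 326). The order turned in replicate 1 (32.5% inside, 29.8% outside) and not in replicate 2 (28.3% inside, 32.8% outside), so no difference held across the replicates. Inside introns the share was 31.9% (52 of 163) on the same strand as the host gene and 30.3% (37 of 122) on the opposite strand. The strongest intronic peak was that at sup-5, on the strand of its host. Introns hold 34.4% of the X-linked and 56.8% of the autosomal tRNA genes.

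**Figure D5:**
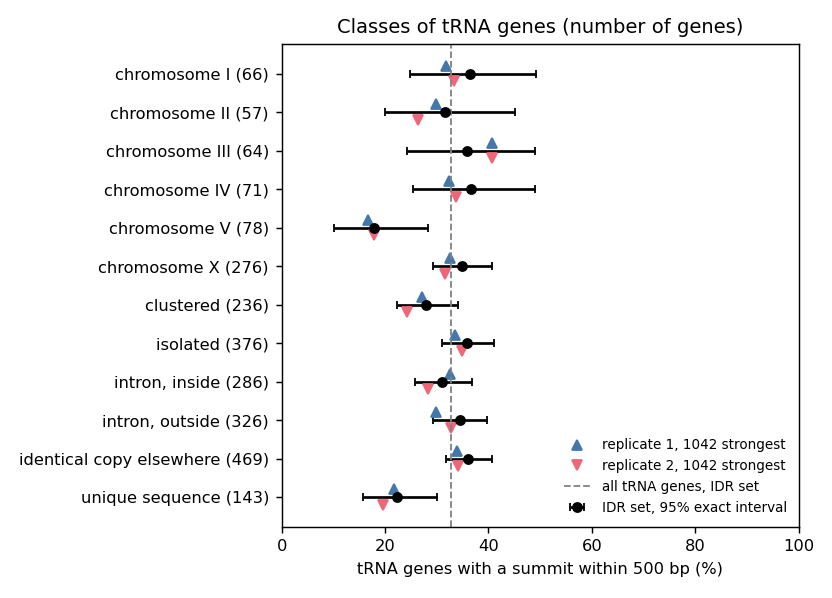
Each row is a class of tRNA genes, by chromosome, clustering, position in coding introns and sequence copies, with its number of genes, and the axis gives the percent of genes with a summit within 500 bp. Black points with 95% exact intervals are for the IDR set and triangles for the 1042 strongest peaks of each replicate. Chromosome V (17.9%) and genes of unique sequence (22.4%) lie left of the dashed line at 32.8%, all tRNA genes, with intervals that end before it.

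The letters of the internal promoter were nearly as common in genes without a peak. The A box letters were sought on the gene's strand in its first 35 bases. They were in 99.5% of the 201 genes with an IDR summit (interval 97.3 to 100%) and 96.7% of the 244 with a weaker summit alone. Of the 167 genes with none, 93.4% held them (interval 88.5 to 96.7%), so the intervals of the first and last sets do not overlap. Among genes with an IDR summit only T14G8.t1 lacked these letters, and its IDR summit lay 479 bp from the gene. The B box letters were in 81.6%, 85.2% and 78.4% of these 3 sets, and the forms with G and with A at the sixth letter, which cannot match at the same place, were in 64.4% and 17.8% of all tRNA genes. On the opposite strand of the genes the A box letters were in none of the 612 and the B box letters in 0.654%, and in windows of the same length 500 bp upstream they were in 2.12% and 1.14%. Genes without the B box letters had an IDR summit in 33.9% of cases (37 of 109) and genes with them in 32.6% (164 of 503). This strict form of the B box therefore did not separate the genes with strong peaks. Genes without a full match can hold a near one, as F57F5.t1 and R04A9.t1 do. Whether a looser form of the B box separates the genes was not tested. A run of TTTT, where RNA polymerase III stops, followed within 25 bp in 99.5%, 98.8% and 97.6% of the same 3 sets. Interrupted tRNA genes, whose own intron is spliced out of the RNA, had an IDR summit in 31.0% of cases (9 of 29), against 32.9% of the 583 genes with 1 exon. The stop sequence and the interrupted genes were looked at after the data were seen.

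E-boxes of the Atonal type, CAGATG or CAGCTG on either strand, were at a smaller share of these peaks than of the others. Such a hexamer stood no more than 50 bp from the summit at 23 of the 425 (5.41%, interval 3.46 to 8.01%), against 10.1% of the other pooled peaks and 10% of all nuclear pooled peaks. In the IDR set they were at 9 of 176 (5.11%, interval 2.36 to 9.49%), against 317 of 866 other IDR peaks (36.6%, interval 33.4 to 39.9%). With 100 bp to each side the shares were 11.5% against 17.6% over the pooled list (17.5% of all nuclear pooled peaks), and 11.9% against 46.0% in the IDR set. The mean GC content was 47.1% against 42.3% over the pooled list and 50.3% against 49.1% in the IDR set, and 3.27% of the tRNA genes hold either hexamer; the part of these in the shares was not tested. In the IDR set, 3 of 168 peaks within 100 bp of the gene (1.79%) had one and 6 of the 8 peaks further away did. That split by distance was made after the data were seen.

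The 3 near ones lay at C37A2.t1 (rank 53), Y39B6A.t9 (tRNA-Phe, rank 327) and F22G12.t1 (tRNA-Val, rank 507). The 6 far ones were Y7A9D.t3 (tRNA-Val, 120 bp from the gene, rank 73), Y7A9D.t1 (tRNA-His, 196 bp, rank 77), both summits at F58D5.t1 (tRNA-Val, 367 bp at rank 92 and 162 bp at rank 709), M163.t1 (tRNA-Lys, 376 bp, rank 111) and T14G8.t1 (tRNA-Pro, 479 bp, rank 377). The peaks beyond 100 bp without such an E-box were at Y92C3A.t2 (tRNA-Ile, rank 208) and F10C1.t1 (tRNA-Gly, rank 570). At Y7A9D.t1 the far summit with E-boxes and a nearer one without, inside the gene at rank 839, were both in the IDR set. At T14G8.t1 the summit near the gene was weak, with a rank of 14286, so the strong peak was the one 479 bp away. The windows of 50 bp to each side of these far summits are printed on the + strand of WBcel235, with the hexamers in capitals on either strand, to show that the sites lie outside the tRNA genes. They span chrIV:16382261-16382361 for Y7A9D.t3, chrIV:16388210-16388310 for Y7A9D.t1, chrX:14486609-14486709 for M163.t1 and chrX:12854311-12854411 for T14G8.t1.
Y7A9D.t3 far summit: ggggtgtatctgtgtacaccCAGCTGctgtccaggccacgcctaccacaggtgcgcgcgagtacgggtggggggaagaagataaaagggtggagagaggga
Y7A9D.t1 far summit: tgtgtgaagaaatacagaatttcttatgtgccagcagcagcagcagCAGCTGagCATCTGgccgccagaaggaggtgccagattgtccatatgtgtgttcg
M163.t1 far summit: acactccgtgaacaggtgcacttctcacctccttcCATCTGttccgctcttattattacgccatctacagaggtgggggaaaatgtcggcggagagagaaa
T14G8.t1 far summit: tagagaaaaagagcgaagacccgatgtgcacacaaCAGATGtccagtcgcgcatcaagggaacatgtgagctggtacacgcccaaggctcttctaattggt

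Some protein-coding genes were counted as having an IDR peak only through peaks beside tRNA genes. With a window that starts 2000 bp upstream of an annotated 5′ end and stops 500 bp past it, 829 of 19973 coding genes (4.15%) had an IDR summit, and for 91 of them (11%) every such summit was beside a tRNA gene. Of the 176 IDR peaks beside tRNA genes 81 (46.0%) fell in such a window, against 547 of the 866 other IDR peaks (63.2%). The listed genes that serve tRNAs were too few to set their share with an IDR summit apart from that of all coding genes. Among the aminoacyl-tRNA synthetase genes, which load tRNAs with their amino acids, 20 of 21 listed were annotated, 1 (5.00%) had an IDR summit, beside the 4.15% of all coding genes, and 14 had a pooled summit, beside 53.7% of all coding genes. That gene was nars-1, the asparaginyl-tRNA synthetase, with a summit 1585 bp upstream at pooled rank 894 (replicate ranks 1387 and 621), which was not beside a tRNA gene. Of 10 genes for RNA polymerase III and its factors, including rpc-1, brf-1, tbp-1 and mafr-1, which encodes a homologue of the polymerase III repressor Maf1, 5 had a pooled summit and none had an IDR summit, which is too few genes to tell the share from 4.15% (interval 0 to 30.8%).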

How the data were processed

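LIN-32 ChIP-seq was read from 4 peak lists: 1 per replicate, 1 of both replicates together and the IDR set. The list of both replicates together is labelled as peaks and background. Per the deposited notes on file derivation, the IDR set rests on the other 3. Each peak has the authors' signal, on an unstated scale, and a deposited −log10 q-value. Coordinates are those of ce11, per the labels. The sources used here do not give the aligner, peak caller, IDR threshold or handling of reads that fit several places, and the depth per sample is unknown from the lists.

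Summits were set beside 612 tRNA genes of Ensembl release 115, with names and isotypes from RefSeq by WormBase ID. All 612 stood at the same coordinates in both. Summits within 100 bp counted as matched. A gene was intronic when it lay in an intron of a coding transcript and outside all exons. Apart from the correlations between replicates and signals printed side by side, levels were not compared between lists. No test was run, since 1 group of 2 replicates allows none. The members and lists were chosen with earlier results of these data known. Genes named are those of the 20 strongest peaks, the strongest of each isotype, chromosome and class, the largest identical families, the peaks at the IDR boundary and listed tRNA-related coding genes with an IDR summit; further genes were named after their values were seen. Procedures were tested on simulated data. Alternatives covered windows, match and cluster distances, identical copies and single replicates. Python 3.11.15, numpy 2.4.6, scipy 1.17.1, pandas 2.3.3 and matplotlib 3.10.9 were used.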

Additional observations from a re-analysis of the deposited data

Results flagged for a closer look

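Replicate 2 has 17 peaks on the mitochondrial genome and replicate 1 has none, a signal outside the nuclear chromosomes described above. The signals of the 17 ran from 29.9 to 803. Of them, 13 lay within 500 bp of 1 of the 22 mitochondrial tRNA genes, with signals of 44.5 to 660, but such windows cover 68.2% of the mitochondrial genome. Groups of 2 samples were too small to look for outlying samples.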

How the results depend on the processing

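Of 59 alternative values computed over 19 results, 36 stayed within the interval or within 1.5 times of the reported value and 23 moved. The order of classes turned in 2 cases: for clustered against isolated genes at a cluster distance of 500 bp (32.9% and 32.8%), and for genes inside against outside introns in replicate 1 alone (32.5% and 29.8%). With summits inside the gene alone, 169 peaks remained, the shares of genes with an IDR and a pooled summit were 15.8% and 27.6%, the IDR share of peaks was 57.4% and the median rank 708. A window of 250 bp gave a pooled summit to 65.8% of genes. A window of 1000 bp gave one to 80.1%, an IDR share of 34.3% and a median rank of 4084. The 521 strongest IDR peaks held 25.4% of the peaks beside tRNA genes. Matching within 50 bp, within 250 bp or by overlap put 49.2%, 77.9% or 78.8% in both replicates. Without genes that have an identical copy, the median rank was 4435 and the IDR shares of genes were 24.6% on X, 20.9% on autosomes and, chosen after the data were seen, 20.9% for clustered and 23.0% for isolated genes, so that gap narrowed. Identical copies left out and summits within 100 bp gave an IDR share of 35.9%, also chosen after the data were seen. The median position in the IDR set was 12, the E-box share within 100 bp of the summit 11.5% (17.6% at other peaks), and with 1000 bp upstream to 200 bp downstream 0 synthetase genes had an IDR summit. With each replicate alone, the share of genes with a pooled summit was 68.3% to 69.1%, with a summit among the 1042 strongest 30.7% to 31.0%, and the share of peaks among the 1042 strongest 37.8% to 41.2%. The cause of each move is the alternative's own construction or was not tested. No paired analysis was possible because the 2 samples are replicates of 1 group. Read depth, which sets which weak peaks are found, is unknown.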

Other observations

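Annotated tRNA pseudogenes, relics of tRNA genes, had strong peaks less often than tRNA genes did. Of 209 in RefSeq, 202 lay over 1000 bp from any tRNA gene, a comparison chosen after the data were seen. An IDR summit lay within 500 bp of 3 of the 202 (1.49%, interval 0.307 to 4.28%), against 32.8% of tRNA genes, and a pooled summit of 66 (32.7%, interval 26.3 to 39.6%), against 72.7% of tRNA genes. The shares at other places in the genome were not computed, so whether pseudogenes differ from them was not tested. The 3 pseudogenes with an IDR summit were D1046.t1 on chromosome IV (pooled rank 48), T08B2.t1 on chromosome I (rank 287) and C52E12.t1 on chromosome II (rank 298).

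Peak intervals in the pooled list are nearly all 384 bp wide. Intervals under 384 bp made up 5.41% of peaks beside tRNA genes and 0.348% of the other peaks, and 15 of the 20 strongest peaks beside tRNA genes had one. Within the IDR set the shares were 12.5% and 10.3%.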
